A study of Homo sapiens with 10 samples.

Results

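The kinesins are a family of motor proteins, and 31 of their genes were measured among the 14232 genes of the array table that had a row annotated with a single symbol. Members were the rows whose only symbol followed the family's KIF or KIFC naming, and the row with the highest mean over the 10 arrays stood for a gene with several rows. By role, 8 members act in mitosis, 15 in axonal, dendritic and other cargo transport, 2 in cilia and centrioles, and 6 have mixed or other roles. A further 9 listed kinesins, among them KIF4A, KIF20A and KIF23, appeared only in rows shared with another gene and were kept out of the counts, and KIF18B and KIFC1 had no row.

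The values come from SH-SY5Y, an established human neuroblastoma line used as a model of sympathetic, catecholamine-producing neurons that still divides. Total RNA from 5 untreated samples (ctrl 7, 11, 13, 17 and 19, after the numbers in their titles) and 5 treated with paraquat (8, 12, 14, 18 and 20) was hybridised to Affymetrix exon arrays. Paraquat is a herbicide that cycles between redox states and produces superoxide. The sources used here give neither dose nor duration. Nothing in the labels ties the samples of a group to separate cultures, and p-values therefore cover only the spread between these samples, which may be technical.

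Kinesins hydrolyse ATP to move along microtubules or to take them apart. In dividing cells a set of them separates the spindle poles, aligns the chromosomes and completes cytokinesis, and most genes of that set are transcribed late in the cell cycle. In neurons other members carry vesicles, organelles and mitochondria along the axon, and kinesin-2 also moves protein trains into cilia. A cell line that divides and has neuronal traits can transcribe both sets.

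The median log2 value of an array was 6.78 to 6.93, and correlations between arrays over all rows were 0.977 to 0.993 within groups and 0.961 to 0.981 across groups. Ctrl 11 stood apart, with a residual standard deviation (SD) of 0.358 against 0.215 to 0.274 for the other controls, and some values that move with it are given without it as well. Of the 10 markers fixed for sympathetic neuroblasts 6 were measured, and 5 of these, PHOX2A, GATA3, ISL1, DDC and CHGA, lay above the median row in untreated cells, while TH was at 6.31. The same held for 0 of 4 measured glial, 4 of 6 mesenchymal and 1 of 4 leukocyte markers (CD68, at 7.74), and the pan-leukocyte marker PTPRC was at 2.67.

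Mitotic kinesin transcripts fell after paraquat, and most transport kinesins were not called changed. In a limma model of all 22011 rows, with a call at a Benjamini-Hochberg adjusted p under 0.05, 6 of 8 mitotic members fell and 0 rose, where 14.2% of all 14232 genes fell and 9.55% rose. The median log2 change of the mitotic members was -0.76. Of 15 axonal and cargo members 3 fell and 0 rose, at a median of -0.06. Treated and untreated arrays were fully apart for 5 of the 8 mitotic and 2 of the 15 transport members, all lower after paraquat, against 11.6% of all genes. In bulk RNA fewer dividing cells and less RNA per dividing cell cannot be told apart.

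**Figure D1:**
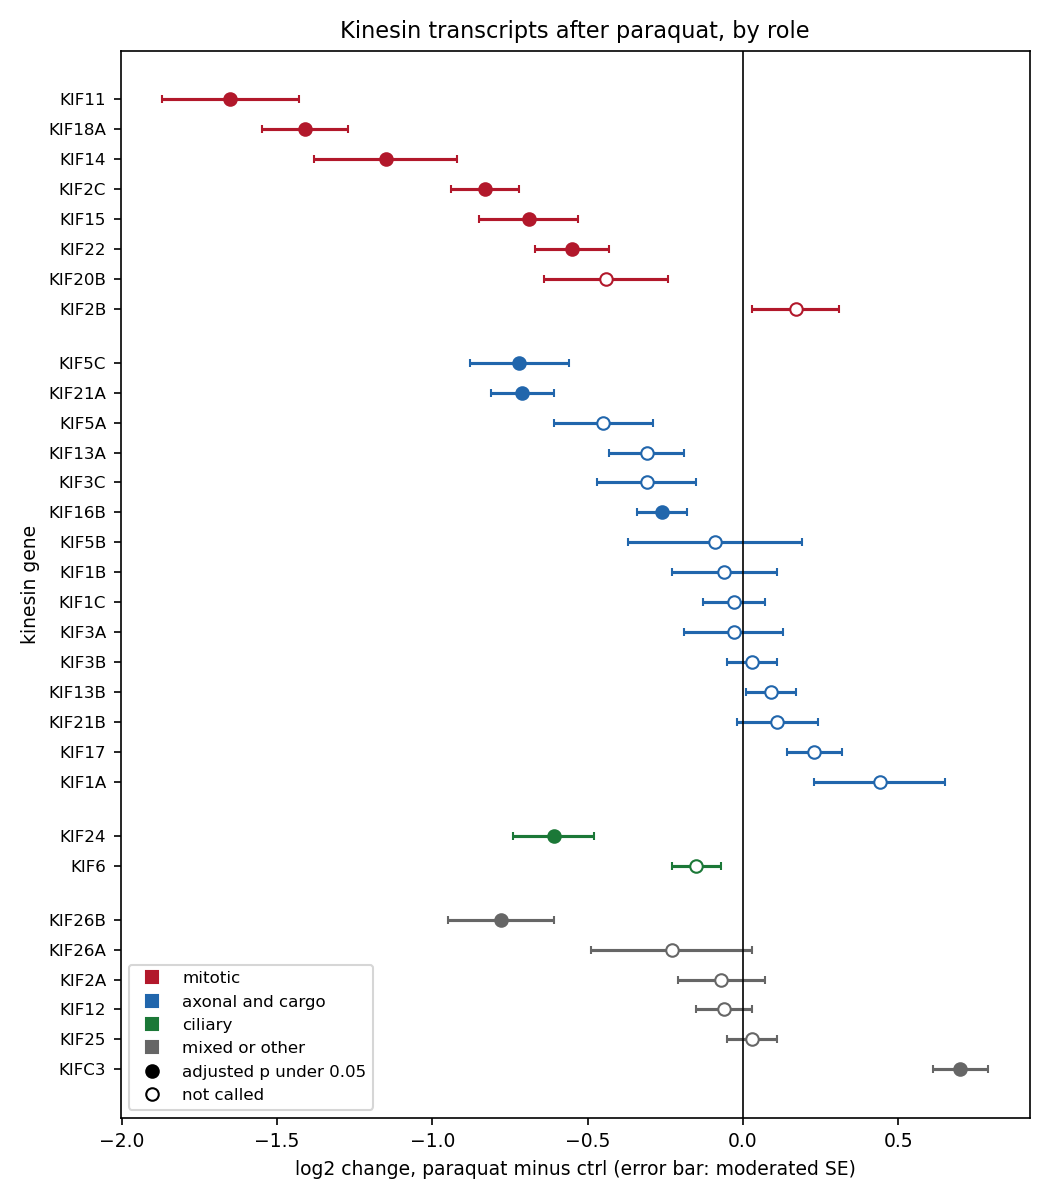
Log2 change after paraquat (horizontal axis, paraquat minus ctrl, 5 arrays each) of the 31 kinesin genes, grouped by role; bars are moderated standard errors and filled symbols passed an adjusted p under 0.05. The mitotic members reach down to -1.65 for KIF11, most transport members sit near 0, and KIFC3 at 0.70 is the only member called higher.

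Sequences upstream of the start sites are shown for the 6 mitotic members that fell. Transcription of many late cell cycle genes depends on the cell cycle genes homology region, or CHR, a short element next to the start site that is often preceded by CCAAT boxes. Each run below holds the 180 bases before the start site from RefSeq (GRCh38.p14), 5′ to 3′ on the gene's strand, with matches on either strand in capitals. The CHR was searched in the form TTTGAA and in the form TTCGAA. The CCAAT box was searched by those letters, and an E2F-like motif was searched as GCGGGAA. KIF5B, a transport kinesin that was not called changed, is shown as the only transport member whose window held a CHR match.
KIF11 (chr10:92592950-92593129, plus strand): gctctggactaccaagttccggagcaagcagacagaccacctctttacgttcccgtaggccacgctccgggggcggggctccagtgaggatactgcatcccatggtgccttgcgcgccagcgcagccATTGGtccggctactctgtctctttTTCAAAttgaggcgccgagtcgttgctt
KIF18A (chr11:28108157-28108336, minus strand): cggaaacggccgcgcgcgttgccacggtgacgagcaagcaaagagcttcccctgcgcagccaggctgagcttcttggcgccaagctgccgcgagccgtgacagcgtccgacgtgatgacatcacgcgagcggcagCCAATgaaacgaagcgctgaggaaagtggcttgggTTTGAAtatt
KIF15 (chr3:44761614-44761793, plus strand): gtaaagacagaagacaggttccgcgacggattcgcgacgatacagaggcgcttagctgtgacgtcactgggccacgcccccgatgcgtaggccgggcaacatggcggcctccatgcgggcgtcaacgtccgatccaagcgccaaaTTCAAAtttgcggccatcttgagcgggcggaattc
KIF22 (chr16:29790571-29790750, plus strand): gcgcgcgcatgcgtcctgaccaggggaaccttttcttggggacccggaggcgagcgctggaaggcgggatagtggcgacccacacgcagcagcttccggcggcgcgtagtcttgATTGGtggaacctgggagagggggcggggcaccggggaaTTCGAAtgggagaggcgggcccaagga
KIF14 (chr1:200620752-200620931, minus strand): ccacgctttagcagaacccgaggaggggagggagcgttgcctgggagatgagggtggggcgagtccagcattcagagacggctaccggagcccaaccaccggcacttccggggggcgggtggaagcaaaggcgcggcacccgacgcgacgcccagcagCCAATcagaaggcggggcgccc
KIF2C (chr1:44739657-44739836, plus strand): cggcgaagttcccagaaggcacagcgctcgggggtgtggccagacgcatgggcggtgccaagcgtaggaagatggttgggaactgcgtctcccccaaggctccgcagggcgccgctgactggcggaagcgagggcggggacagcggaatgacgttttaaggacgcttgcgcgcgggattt
KIF5B (chr10:32056426-32056605, minus strand): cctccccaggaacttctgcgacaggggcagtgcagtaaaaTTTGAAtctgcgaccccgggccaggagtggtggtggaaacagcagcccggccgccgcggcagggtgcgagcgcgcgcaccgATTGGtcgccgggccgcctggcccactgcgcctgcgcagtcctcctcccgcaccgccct

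In KIF11, KIF18A and KIF22 a CCAAT match stands upstream of a CHR match that lies close to the start site, while the CHR match of KIF5B lies farther out. Promoter windows of 300 bases, from 250 before to 50 after the start, were found for 26 of the 31 members. A CHR match in either form was present in 6 of 8 mitotic, 1 of 12 transport and 1 of 2 ciliary members. The share was 13.1% of the 11386 windows of measured genes and 16.6% of all 27305 windows. The mitotic members with a match were KIF11, KIF14, KIF15, KIF18A, KIF20B and KIF22, and in KIF14 and KIF20B it lay past the start site. The ciliary member was KIF24, which fell, and its match also lay past the start site. KIF20B was not called changed, and KIF2C, which fell, had no match in its window, so match and call did not go together in every member. A CHR and a CCAAT match together occurred in 5 of 8 mitotic, 1 of 12 transport and 1 of 2 ciliary members, against 5.41% of windows of measured genes. GCGGGAA was found in 0 of 8 mitotic members, against 9.01% of those windows. These matches are descriptions of letters, not binding sites.

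KIF11, also called Eg5, is the motor that slides spindle microtubules apart and separates the poles. Its log2 expression was 8.14, 8.41, 8.19, 8.06 and 7.69 in the controls (in the order 7, 11, 13, 17, 19) and 6.87, 6.13, 7.03, 5.92 and 6.28 after paraquat (in the order 8, 12, 14, 18, 20). Every paraquat array lay below every control. KIF11 fell 3.14-fold, by 1.65 on the log2 scale with a moderated standard error (SE) of 0.22 (limma adjusted p = 0.000337), the largest change of any member.

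KIF18A, which damps the movements of chromosomes at the metaphase plate, measured 6.64, 7.20, 6.80, 7.02 and 7.24 in the controls and 5.67, 5.30, 5.79, 5.59 and 5.50 after paraquat. It fell 2.66-fold, by 1.41 with an SE of 0.14 (limma adjusted p = 4.27e-05), and the paraquat arrays lay close together below all controls. The paraquat mean of KIF18A, 5.57, is dim, so the size of its fall is uncertain. KIF14, which acts with citron kinase in cytokinesis, measured 8.22, 7.91, 7.93, 7.97 and 7.61 in the controls and 7.18, 6.30, 7.51, 6.36 and 6.54 after paraquat. It fell by 1.15 with an SE of 0.23 (adjusted p = 0.00449). Here paraquat 14 came close to ctrl 19, the lowest control, and paraquat 8 was the next highest, while the other 3 treated arrays were lower.

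KIF2C, or MCAK, does not walk but takes microtubules apart at centromeres, which frees faulty attachments. It measured 8.60, 8.74, 8.50, 8.55 and 8.79 in the controls and 7.71, 8.01, 8.06, 7.60 and 7.65 after paraquat, a fall of 1.78-fold (log2 change -0.83, SE 0.11, limma adjusted p = 0.000404) with no overlap between groups. KIF22, a motor that binds chromosome arms, measured 8.74, 8.92, 8.98, 8.93 and 9.36 in the controls and 8.16, 8.51, 8.46, 8.54 and 8.50 after paraquat. Its groups did not overlap either, and it fell by 0.55 with an SE of 0.12 (adjusted p = 0.0084).

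KIF15, which can stand in for KIF11 in the spindle, measured 7.31, 7.41, 7.23, 7.12 and 7.29 in the controls and 6.50, 6.51, 7.23, 6.19 and 6.49 after paraquat. It fell by 0.69 with an SE of 0.16 (limma adjusted p = 0.0124), although paraquat 14 lay within the control range and the other 4 treated arrays lay below it. KIF20B, a motor of late cytokinesis, measured 7.06, 7.00, 7.03, 7.15 and 6.56 in the controls and 6.80, 6.10, 7.06, 6.04 and 6.60 after paraquat. Its change of -0.44 did not pass (adjusted p = 0.167), and without paraquat 14 it was -0.57 (adjusted p = 0.0535). KIF2B, a dim relative of KIF2C with means of 4.21 and 4.38, had a change of 0.17 (adjusted p = 0.466).

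**Figure D2:**
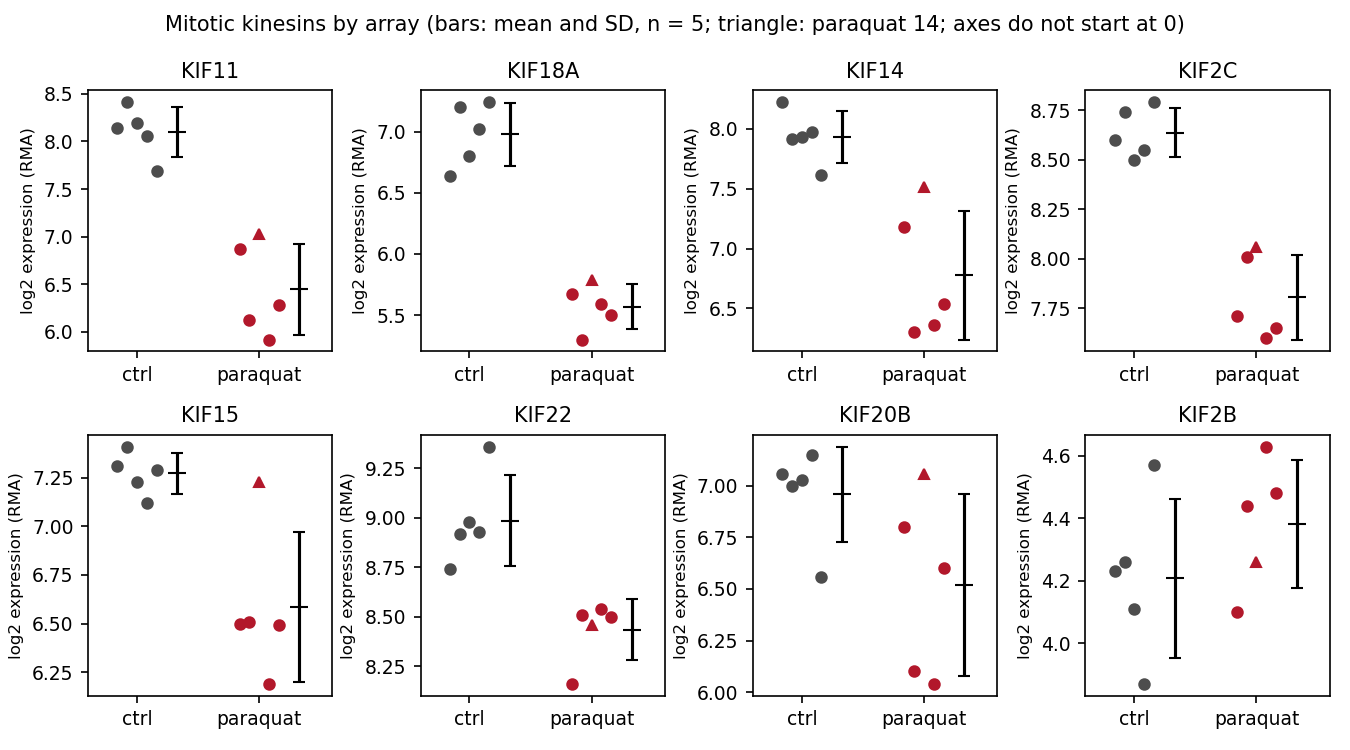
Log2 expression of the 8 mitotic kinesins in each of 5 ctrl (grey) and 5 paraquat arrays (red), with the mean and SD beside each group; the vertical axes do not start at 0. The groups are separate for KIF11, KIF18A, KIF14, KIF2C and KIF22, and paraquat 14 (triangle) is the highest treated array in 6 of the 8 panels.

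The size of the fall differed between treated arrays. Relative to the control means, the median of the 8 mitotic members was -0.48 in paraquat 14, -0.80 in paraquat 8, -0.81 in paraquat 12, -0.88 in paraquat 20 and -1.06 in paraquat 18. Paraquat 14 was the highest treated array for 6 of the 8 members and the lowest for 0, and paraquat 18 was the lowest for 4. Transcripts of proteins that bind, load or phosphorylate mitotic kinesins also fell least in paraquat 14. Their median was -0.93 there against -1.33 to -1.10 in the other treated arrays. This was not particular to mitotic genes. The transport kinesins were also highest in paraquat 14, at a median of 0.12 against -0.22 to -0.09. The median over all rows was highest there too, at 6.92 against 6.78 to 6.85 in the other treated arrays. With any 1 array left out, the number of mitotic members that fell was 6 throughout.

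Rows shared by a mitotic kinesin and another gene fell by more than the median mitotic member (-0.76), although their signal cannot be assigned. The row of KIF20A, which brings the chromosomal passenger complex to the midzone, and of CDC23 went from 9.60 ± 0.17 (SD, n = 5) to 7.06 ± 0.28, a log2 change of -2.54 (limma adjusted p = 7.2e-07). The row of KIF23, the motor of centralspindlin, and its antisense RNA changed by -1.08 (adjusted p = 0.000164). The row of the chromosome motors KIF4A and KIF4B, which are nearly identical, changed by -1.12 (adjusted p = 6.4e-06). Of the 7 other shared rows, which hold KIF2A, KIF7, KIF9, KIF19, KIF27 or KIFC2, 0 were called, with changes from -0.28 to 0.13. These rows were named because of their annotation and not counted as members.

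Partners of the mitotic kinesins fell as well: 14 of 15 measured were called lower and 0 higher, against 14.2% and 9.55% of all genes, at a median of -1.19. AURKA, a kinase of the spindle poles, fell by 1.84 (limma adjusted p = 5.7e-05), the KIF2C-binding shugoshin SGO2 by 1.71 and BIRC5, the survivin subunit of the chromosomal passenger complex, by 1.65. CENPE, a kinesin of the kinetochore without a KIF name, fell by 1.50 with an SE of 0.16 (adjusted p = 8.82e-05), but its paraquat mean of 4.18 is dim, so the size of its fall is uncertain. SGO2, with a paraquat mean of 5.39, has the same limit. PRC1, which binds KIF4A in the midzone, went from 10.08 ± 0.09 to 8.81 ± 0.09 and TPX2, which binds KIF11 and KIF15, from 10.29 ± 0.10 to 9.20 ± 0.24. The importin KPNA2 was the member not called, at 0.23 (adjusted p = 0.549).

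Among the transport kinesins 1 of the 3 heavy chains of kinesin-1 was called. KIF5C, the neuronal heavy chain, measured 8.65, 8.04, 8.62, 8.63 and 8.77 in the controls and 7.77, 7.50, 8.21, 7.78 and 7.83 after paraquat. It fell by 0.72 with an SE of 0.16 (limma adjusted p = 0.00802), and the groups overlapped only through ctrl 11, the lowest control, and paraquat 14, the highest treated array. Without ctrl 11 the change of KIF5C was -0.85 (adjusted p = 0.00113). KIF5A, the other neuronal heavy chain, measured 7.77, 7.40, 7.77, 7.95 and 7.71 in the controls and 7.47, 6.74, 7.24, 7.46 and 7.45 after paraquat. Its change of -0.45 (SE 0.16) did not pass (adjusted p = 0.0657). Without ctrl 11 it was -0.53 and passed (adjusted p = 0.033), and a second, dimmer KIF5A row fell by 0.71 (adjusted p = 0.00974).

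KIF5B, the heavy chain made in most tissues, measured 9.01, 9.57, 9.79, 9.63 and 10.25 in the controls and 8.70, 9.44, 10.19, 9.76 and 9.69 after paraquat. The arrays of both groups spread over more than a log2 unit and overlapped, and the change was -0.09 with an SE of 0.28 (limma adjusted p = 0.873). That error is the largest of any member, so a change as large as that of KIF5C was hard to detect here. The light chains that link kinesin-1 to cargo were not called, with changes of -0.11 for KLC1, 0.36 for KLC2 and 0.17 for KLC4.

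KIF21A, which restrains microtubule growth and acts in axons, measured 9.93, 10.02, 9.98, 9.87 and 9.69 in the controls and 9.23, 9.05, 9.40, 9.04 and 9.21 after paraquat. It fell by 0.71 with an SE of 0.10 (limma adjusted p = 0.000482), with tight groups that did not overlap. KIF16B, a motor of early endosomes, measured 6.17, 6.02, 6.17, 6.26 and 6.14 in the controls and 5.92, 5.69, 5.97, 5.91 and 5.96 after paraquat. Its groups did not overlap, but the fall of 0.26 with an SE of 0.08 only just passed (adjusted p = 0.048). The call was lost when any array but ctrl 11 was left out (adjusted p = 0.0512 to 0.121) and after median centring (adjusted p = 0.113).

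The remaining transport members were not called, with changes from -0.31 to 0.44. KIF1A, the motor of synaptic vesicle precursors, had the highest change of the transport members. It measured 7.93, 7.30, 8.19, 8.23 and 8.53 in the controls and 8.24, 8.19, 8.67, 8.66 and 8.62 after paraquat, a difference of 0.44 with an SE of 0.21 (limma adjusted p = 0.186). The lowest control was ctrl 11, and without it the difference was 0.25. KIF1B, which carries mitochondria and synaptic vesicle precursors, had a change of -0.06 (adjusted p = 0.873), and its ubiquitous relative KIF1C one of -0.03. The endosomal motors KIF13A and KIF13B had changes of -0.31 and 0.09, and the dendritic motor KIF17 one of 0.23 (adjusted p = 0.117). Without paraquat 14 KIF13A passed at -0.41 (adjusted p = 0.0115) and KIF17 at 0.28 (adjusted p = 0.0487).

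The subunits of kinesin-2, which serve both axons and cilia, were not called. KIF3A and KIF3B form the motor together and had changes of -0.03 (SE 0.16) and 0.03 (SE 0.08), KIF3C had -0.31 (SE 0.16), and the associated protein KIFAP3 had -0.19. The trains that this motor moves in cilia, measured through 21 genes of intraflagellar transport, held 4 members that fell and 1 that rose, at a median of -0.25. IFT70A fell by 1.08 (limma adjusted p = 0.0027), IFT81 by 0.72, IFT172 by 0.60 and IFT122 by 0.55, while WDR19 rose by 0.38 (adjusted p = 0.0426). Their share of 4 in 21 is close to the 14.2% of all genes that fell.

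Of the 2 ciliary members, KIF24 takes microtubules apart at centrioles and holds back the growth of cilia. It measured 6.93, 6.53, 7.02, 6.94 and 6.72 in the controls and 6.35, 5.95, 6.49, 6.27 and 6.02 after paraquat, lower in every treated array. It fell by 0.61 with an SE of 0.13 (limma adjusted p = 0.00684), while a second, dimmer row of the gene changed by -0.28 without passing (adjusted p = 0.117). KIF6 lay near the bottom of the array, with means of 3.08 and 2.93, brighter than 9.66% of rows, and a change there cannot be told from background.

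In the group with mixed roles 1 member rose and 1 fell. KIFC3, a motor that moves towards microtubule minus ends and acts at cell junctions and the Golgi apparatus, was the only kinesin that rose. It measured 7.11, 7.35, 7.45, 7.30 and 7.20 in the controls and 7.93, 8.12, 8.03, 7.96 and 7.88 after paraquat. The groups were clearly apart, and the rise was 0.70 with an SE of 0.09 (limma adjusted p = 0.000233). KIF26B, an atypical member that does not move along microtubules, measured 7.04, 6.66, 7.35, 6.88 and 7.40 in the controls and 6.30, 5.86, 6.50, 6.30 and 6.48 after paraquat. It fell by 0.78 with an SE of 0.17 (adjusted p = 0.00681) without overlap. KIF26A, KIF12 and KIF25 were not called, with changes of -0.23, -0.06 and 0.03. The change of KIF26A was 0.01 without ctrl 11, where it measured 8.09 against 6.74 to 7.13 in the other controls.

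KIF2A belongs to the same subfamily as KIF2C but works both at spindle poles and in growing axons, where it prunes branches. It measured 9.91, 9.70, 9.81, 9.79 and 9.62 in the controls and 9.87, 9.47, 10.17, 9.42 and 9.56 after paraquat, with overlapping groups and a change of -0.07 (SE 0.14, limma adjusted p = 0.812). The difference between KIF2A and KIF2C within each array rose by 0.76 after paraquat, with 0.84 to 1.31 in the controls and 1.47 to 2.17 in the treated arrays. An exact two-sided permutation test over the arrays gave p = 0.00794, the smallest that 5 against 5 arrays allow. The adjusted p was 0.0291 over the 11 paralog pairs compared. These pairs were chosen with earlier results of these data known, and the adjustment does not cover that choice.

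By the same exact permutation test, with the same limit, 2 transport pairs passed as well. KIF21A fell relative to KIF21B, by 0.82 (adjusted p = 0.0291), while the change of KIF21B itself, 0.11, did not pass. KIF21B was dim, with means of 5.62 and 5.73, brighter than 35.3% of rows, so the size of this unequal change is uncertain. KIF13A fell relative to KIF13B, by 0.40 (adjusted p = 0.0291), although neither gene was called alone. In each of these 3 pairs the groups did not overlap. For the kinesin-1 heavy chains, KIF5B relative to KIF5C had a change of 0.63 (exact permutation p = 0.0714, adjusted p = 0.157) and KIF5A relative to KIF5B one of -0.36 (adjusted p = 0.446), so an unequal change among them was not shown. KIF1A relative to KIF1B had 0.50 (exact permutation p = 0.0397, adjusted p = 0.109), and 0.62 without ctrl 19 (adjusted p = 0.0437). With ctrl 7, 13 or 17 left out, 0 of the 11 pairs passed, each of the 3 pairs then having an adjusted p of 0.0582, with changes of 0.79 to 0.81 for KIF2A and KIF2C, -0.41 to -0.38 for KIF13A and KIF13B and -0.89 to -0.77 for KIF21A and KIF21B. The last pair also missed without paraquat 12 or 18 (adjusted p = 0.0582 and a change of -0.75 each). Leaving an array out cannot make separate groups overlap, so the groups of these 3 pairs stayed apart throughout. With fewer arrays the exact test has coarser steps of p, and these misses do not by themselves show a smaller difference. KIF26A relative to KIF26B had 0.55 (adjusted p = 0.382), and 0.89 without ctrl 11 (adjusted p = 0.0437).

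**Figure D3:**
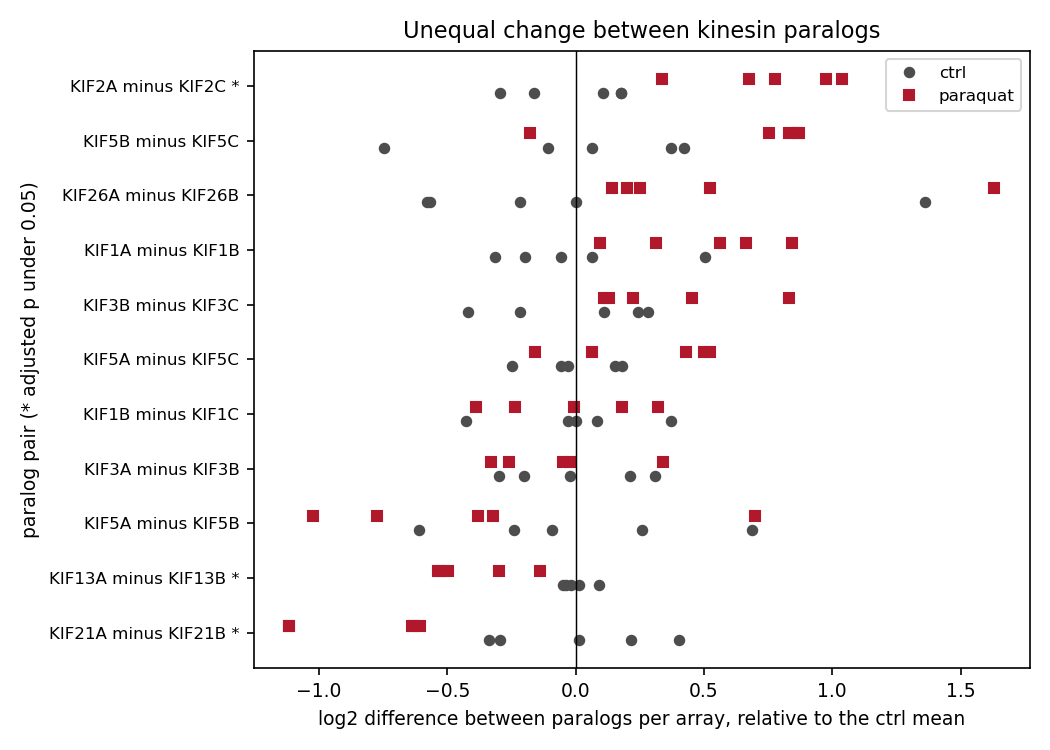
Log2 difference between paralogous kinesins within each array, set relative to the ctrl mean of the pair (horizontal axis), for 11 pairs in 5 ctrl (circles) and 5 paraquat arrays (squares). Treated and untreated arrays are apart for KIF2A minus KIF2C, which moved by 0.76, and for KIF13A minus KIF13B and KIF21A minus KIF21B, which moved by -0.40 and -0.82.

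The other parts of the transport machinery were mostly not called. Of 19 measured light chains and cargo adaptors 3 fell and 1 rose, at a median of -0.11, shares near the 14.2% lower and 9.55% higher among all genes. DPYSL2, or CRMP2, which links tubulin to kinesin-1, fell by 1.08 (limma adjusted p = 0.0008), the mitochondrial adaptor TRAK1 by 0.51 and the syntaxin adaptor SYBU by 0.50, while the lysosomal adaptor PLEKHM2 rose by 0.52 (adjusted p = 0.00183). Of 23 subunits and regulators of dynein and dynactin, the motor that runs the opposite way, 0 fell and 1 rose, at a median of -0.09. The member that rose was NDEL1, a dynein regulator, at 0.52 (adjusted p = 0.0023), and the dynein heavy chain DYNC1H1 had a change of 0.03.

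**Figure D4:**
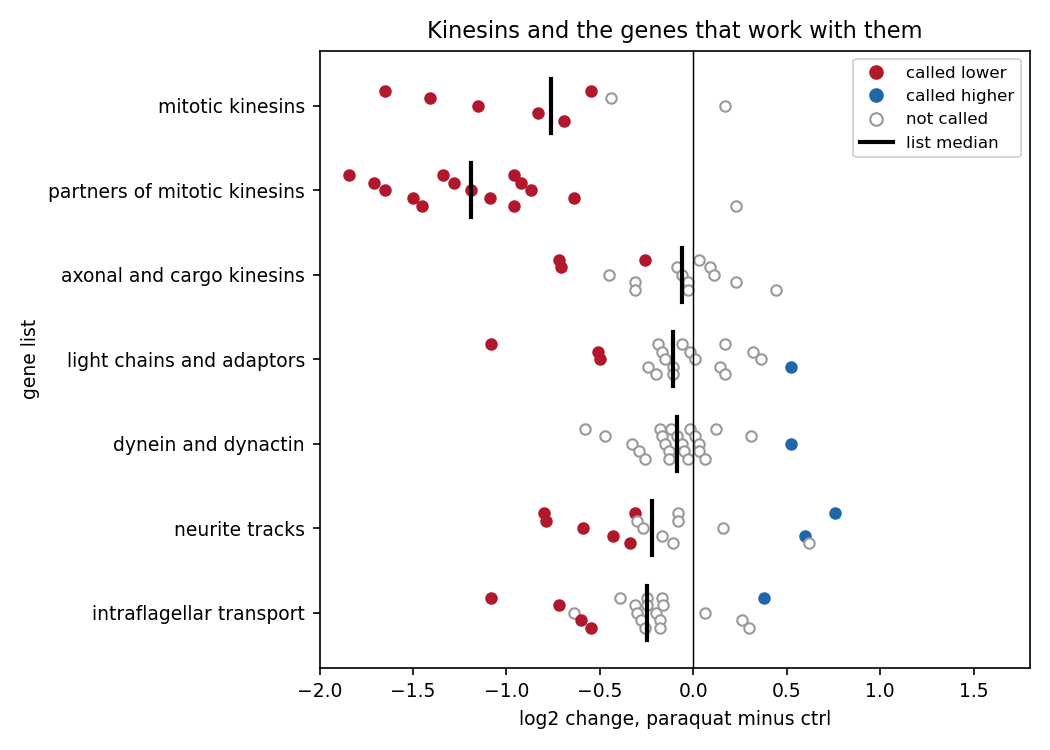
Log2 change after paraquat (horizontal axis) of each measured gene in 7 lists, with the list median as a black bar; red genes were called lower, blue genes higher and open grey genes neither. Mitotic kinesins and their partners have medians of -0.76 and -1.19, and the transport lists have medians between -0.25 and -0.06.

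Some markers of cell identity moved beside these changes. The summed log2 level of the 6 sympathetic markers was 54.0 to 55.5 in the controls and 47.7 to 48.9 after paraquat. Of these markers 5 of 6 were called lower. Of all genes 14.2% were called lower and 9.55% higher. The 6 mesenchymal markers summed to 44.7 to 46.0 and 48.1 to 51.0. Only SNAI2 and CD44 were called higher, by 1.97 and 1.67. PRRX1, VIM and FN1 had changes of 0.05, 0.25 and 0.50 and COL1A1 one of -0.51, none of them called. The 4 leukocyte markers summed to 17.9 to 19.0 and 20.1 to 20.8. CD14 and CD68 were called higher, and PTPRC lay near the bottom of the array in both groups. The glial sums of 17.9 to 19.7 and 17.8 to 19.9 overlapped. The part of these shifts in the changes of KIF5C, KIF21A and KIFC3 was not tested.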

How the data were processed

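Expression was measured in 10 samples of SH-SY5Y cells, 5 per group. Per the submitters' processing notes, the authors made the deposited log2 values with RMA. This method subtracts background, equalises the arrays and summarises probes, which shrinks changes of dim transcripts. The log2 scale was read from the range of 1.07 to 14.37. No version of the software or genome build was given in the sources used here. Each row is a transcript cluster, so single exons cannot be separated. All 33 kinesin rows with 1 symbol matched a RefSeq gene by identifier.

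The deposited values were fitted in limma 3.58.1 (R 4.3.3) over all 22011 rows with the group as only term, 8 residual and 3.06 prior degrees of freedom, without a filter. Tests were two-sided, adjusted by Benjamini-Hochberg over all rows. The fit was tested on simulated data. The number of arrays limits the precision, with a median standard error of 0.13.

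The kinesins, roles, paralog pairs and other lists were chosen with earlier results of these data known, so lists are described by counts and medians. The paralog pairs were tested all the same, and not every pair within a subfamily was compared. Their adjusted p-values cover the 11 pairs compared and not the choice of these pairs. Every member is named, and in other lists up to 4 called genes with the largest changes in each direction. KPNA2, the light chains, KIFAP3, DYNC1H1, TUBB2B, TPX2 and PRC1 were added for their roles after their values were seen. Alternatives covered scaling, dim rows, array weights, thresholds, arrays left out, a block of adjacent numbers, the row standing for a gene and shared rows.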

Additional observations from a re-analysis of the deposited data

Results flagged for a closer look

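In 62 groups of 5 arrays (31 kinesins in each group), 5 held an array far from the rest by Dixon's criterion, where chance gives about 1 in 20. Ctrl 11 had KIF26A at 8.09, against 6.74 to 7.13 in the other controls, and KIF5C at 8.04, against 8.62 to 8.77. Ctrl 19 had KIF20B at 6.56, against 7.00 to 7.15. Paraquat 8 had KIF22 at 8.16, against 8.46 to 8.54 in the other treated arrays, and paraquat 12 had KIF16B at 5.69, against 5.91 to 5.97.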

How the results depend on the processing

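Over 18 alternatives (17 for KIF2B and KIF6, which are among the dimmest 33.3% of rows), no kinesin call changed direction, and of 556 comparisons of a gene with its reported result 527 stayed on the same side of the threshold, 18 lost a call, 12 of them KIF16B, and 11 gained one. With 1 array left out, 10 to 12 kinesins were called lower and 1 to 2 higher, 6 mitotic members lower and 0 higher, 2 to 4 transport members lower and 0 to 1 higher, and 0 to 4 paralog pairs unequal. A minimum fold of 1.2 left 5 kinesins lower, 4 of them mitotic and 1 of transport (1648 rows in all against 4397), because it asks for more than a difference from 0. An adjusted p under 0.01 left 9 lower, 5 of them mitotic (2492 rows). Array weights gave 2 kinesins higher, with 5 transport members lower and 1 higher, but called more rows in all (6196 against 4397). Numbers of the titles differ between groups, but neighbours (7 with 8 and so on) might be pairs. Deviations of neighbours correlated at 0.226, 0.461, 0.0912, 0.172 and 0.121, and those of other control and treated arrays at -0.358 to 0.317. Ctrl 7, 11 and 17 correlated best with their neighbours, and ctrl 13 and 19 with paraquat 18 (0.176 and 0.317). These values neither establish nor exclude pairing. The labels state none, and the main model used none. With the neighbours as a replicate block, 5 transport members were lower and 1 higher, and 2 kinesins were higher in all. That setting also called more rows, 5379 against 4397. Those gained were KIF5A, KIF13A and KIF1A; the cause was not tested. KIF5A also passed without the dimmest rows, with array weights, and without ctrl 11 and paraquat 12 together (adjusted p = 0.0449, 0.0191 and 0.0165). Rows shared with other genes brought the mitotic members called lower to 9 of 11, at a median of -1.08 against -0.76. Dim rows such as KIF6 and KIF2B limit what can be seen.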

Other observations

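The tracks on which the transport kinesins run were measured through 16 genes of tubulin, microtubule-associated proteins and neurofilaments, of which 6 fell and 2 rose (37.5% and 12.5%, against 14.2% and 9.55% of all genes), at a median of -0.22. MAP1A, which coats neurite microtubules, fell by 0.80 (limma adjusted p = 0.0137), doublecortin, DCX, of migrating neurons, by 0.79 (adjusted p = 0.00496), and the tubulin-binding stathmins STMN3 and STMN1 by 0.59 and 0.43. The neurofilament subunit NEFM rose by 0.76 (adjusted p = 0.0104) and STMN4 by 0.60 (adjusted p = 0.0308). The beta-tubulin TUBB2B had a change of -0.08 (adjusted p = 0.788).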
